A study of Homo sapiens with 12 samples.

Results

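The 10 genes TRAF1, TNFAIP3, TNFAIP2, TNFRSF9, NFKBIA, NFKB1, NFKB2, RELB, BIRC3 and ICAM1 encode NF-kB subunits, inhibitors of the pathway and direct targets of it. They were followed through RNA sequencing of SUM159, a triple-negative breast cancer cell line. They were found by symbol, and all 10 were present in each of the 4 comparison tables, among 23375 genes in all. They were chosen by name and also selected on the gemcitabine response of control cells, in which TRAF1 had the highest log2 fold change of all genes. Values of that contrast are therefore a description and not a finding.

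The study has 4 groups of 3 libraries. They are cells with a hairpin against E4F1 (shE4F1) given gemcitabine, cells with a scrambled control hairpin (shCTRL) given gemcitabine, untreated shE4F1 cells and untreated shCTRL cells. Gemcitabine, a deoxycytidine analogue that blocks DNA synthesis, was given at 140 nM for 24 h, and E4F1 is a zinc finger transcription factor. All groups share the same line and a medium with serum, hydrocortisone and insulin. How many hairpin sequences stand behind shE4F1, and whether the 3 libraries of each group are separate cultures, is not in the labels. A p-value here therefore covers the scatter among those libraries alone, and that scatter may be technical. In bulk RNA, fewer cells with a transcript and less of it per cell cannot be told apart.

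NF-kB is a family of dimeric transcription factors. RELA, REL and RELB carry an activation domain, whereas NFKB1 and NFKB2 encode precursors that are processed into DNA-binding subunits. In resting cells the inhibitor encoded by NFKBIA holds RELA dimers in the cytoplasm. Signals from TNF receptors reach the IkB kinase through TRAF and BIRC proteins, the inhibitor is degraded and the dimers enter the nucleus. Many targets feed back on the pathway: NFKBIA restores the inhibitor, TNFAIP3 (A20) edits ubiquitin on signalling proteins and ends the signal, and NFKB2 and RELB supply the slower noncanonical arm. Triple-negative lines are known for high basal NF-kB activity.

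The DNA just upstream of transcript starts of the members is shown because NF-kB binds short sites there, called kB sites. It sets TRAF1, TNFAIP3 and TNFRSF9, which rose with gemcitabine in shE4F1 cells, beside BIRC3 and NFKBIA, which were not called there. Upstream windows of 250 bases were taken from RefSeq on GRCh38.p14, of which 9 members had 14 in all; RELB is named only. The kB consensus was searched on both strands, and its matches are in capitals. Sequences are written 5′ to 3′ on the strand of the gene and end at the base before the transcript start.
TRAF1, chr9:120929172-120929421, minus strand: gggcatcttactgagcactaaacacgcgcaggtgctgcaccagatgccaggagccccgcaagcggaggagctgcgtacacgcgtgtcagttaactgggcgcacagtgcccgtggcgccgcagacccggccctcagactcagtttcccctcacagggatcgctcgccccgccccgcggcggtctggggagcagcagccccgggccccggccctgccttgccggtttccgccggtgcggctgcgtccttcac
TNFAIP3, chr6:137867009-137867258, plus strand: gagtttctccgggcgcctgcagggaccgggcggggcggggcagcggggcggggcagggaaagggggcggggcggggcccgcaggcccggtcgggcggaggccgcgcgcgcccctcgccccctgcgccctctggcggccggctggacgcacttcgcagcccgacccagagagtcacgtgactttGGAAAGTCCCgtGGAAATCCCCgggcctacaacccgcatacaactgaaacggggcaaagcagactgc
TNFRSF9, chr1:7940840-7941089, minus strand: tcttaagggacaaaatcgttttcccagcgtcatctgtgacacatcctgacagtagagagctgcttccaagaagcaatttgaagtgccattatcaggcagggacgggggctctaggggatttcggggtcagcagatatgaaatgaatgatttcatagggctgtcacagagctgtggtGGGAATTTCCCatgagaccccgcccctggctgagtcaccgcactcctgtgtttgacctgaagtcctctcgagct
BIRC3, chr11:102317234-102317483, plus strand: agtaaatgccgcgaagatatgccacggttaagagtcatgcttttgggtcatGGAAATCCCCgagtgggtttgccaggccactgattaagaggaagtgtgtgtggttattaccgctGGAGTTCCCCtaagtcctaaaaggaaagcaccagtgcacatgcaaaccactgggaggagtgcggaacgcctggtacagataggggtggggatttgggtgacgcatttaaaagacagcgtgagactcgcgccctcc
NFKBIA, chr14:35404750-35404999, minus strand: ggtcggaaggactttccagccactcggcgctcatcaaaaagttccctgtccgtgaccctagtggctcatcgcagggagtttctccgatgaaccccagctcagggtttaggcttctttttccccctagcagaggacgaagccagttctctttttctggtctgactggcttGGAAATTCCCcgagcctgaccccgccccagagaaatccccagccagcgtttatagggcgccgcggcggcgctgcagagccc
The kB consensus was matched in the windows of 6 of the 9 members: TNFAIP3, TNFRSF9, NFKBIA, NFKB1, NFKB2 and BIRC3. By window, 7 of the members' 14 held a match, against 9.96% of the 35116 windows of all genes. The members were listed as NF-kB pathway genes and direct targets, and windows of the same gene count separately, so this is no test. TNFAIP3 had 2 matches, from 67 to 58 and from 55 to 46 bases before its start, and BIRC3 also had 2, from 199 to 190 and from 135 to 126. In TNFRSF9 the capitals cover 2 overlapping matches on opposite strands between 74 and 64 bases before the start. The single match of NFKBIA lay from 81 to 72 bases before the start. Matched words overlap where they are near-palindromes, as in TNFRSF9 and NFKB2, so matches are not counts of sites. The 3 windows of TRAF1, and those of TNFAIP2 and ICAM1, held no match, which says only that these letters are not in these windows. Of other words, TGACGT, the core of ATF and CREB sites, was in a window of NFKB1 and of NFKB2 and in 7.10% of all windows. The AP-1 word TGANTCA was in that of TNFRSF9 and in 6.57% of all windows. TGACGT and TGANTCA matches did not overlap the kB matches.

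The targeted gene, E4F1, was lower with shE4F1 in both conditions. It stood at 0.532 times the shCTRL level under gemcitabine (log2 -0.91 ± 0.16, adjusted p = 1.47e-07) by the authors' deposited table. In untreated cells it stood at 0.503 times that level (log2 -0.99 ± 0.26, adjusted p = 0.000778) by the authors' deposited table. Here and below, ± is the standard error (SE) of a log2 value with 3 libraries in each group, and "rose" and "fell" mean a Benjamini-Hochberg adjusted p under 0.05. All 6 markers listed for a mesenchymal-like breast line were present in every table, with summed mean normalized counts of 173464 to 279668, and VIM had a mean normalized count of 53240 in the knockdown table under gemcitabine. Of 10 blood cell markers 4 were in each table, and CD3E, CD8A, MS4A1 and CD68 were in none. Their summed mean normalized counts ran from 73.2 in the untreated knockdown table to 209 in the table of gemcitabine in shCTRL cells. Of 9 luminal markers 7 were in each table, with sums of 8244 to 8793 and PGR and EPCAM in none, and of 6 endothelial markers 4 or 5 were, with sums of 604 to 1999 and CDH5 in none. Depth per library is unknown here.

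The gemcitabine response was also measured in shE4F1 cells, whose treated and untreated libraries are not part of the contrast used for the choice. It was taken as the table of shE4F1 with gemcitabine against untreated shCTRL minus the table of untreated shE4F1 against untreated shCTRL. TRAF1, TNFRSF9, RELB, TNFAIP3, ICAM1 and NFKB2 rose, 6 of the 10 members, and none fell. Over all 21085 genes 0.925% rose and 0.185% fell. The members were chosen with earlier results of these data known, so these calls and the places below are no check separate from the choice. The median of the 10 members was 1.08 on the log2 scale, against -0.022 for all genes. TRAF1, an adaptor that binds TRAF2 and BIRC proteins at TNF receptors, rose by 4.04 ± 0.47 (adjusted p = 8.92e-14), 16.4 times the untreated level and place 1 of 21085. TNFRSF9, the T cell costimulatory receptor 4-1BB that recruits TRAF1, rose by 3.23 ± 0.49 (adjusted p = 5.01e-08), place 4. Built from 3 tables, without that of shE4F1 with gemcitabine against untreated shCTRL, the value of TNFRSF9 was 2.24 ± 0.57 (adjusted p = 0.0181). These 3 tables include that of gemcitabine in shCTRL cells, the contrast used for the choice, so values built from them are no separate check. RELB rose by 1.52 ± 0.35 (adjusted p = 0.00362) and TNFAIP3 by 1.48 ± 0.23 (adjusted p = 2.50e-07). ICAM1, an adhesion molecule for leukocyte integrins, rose by 1.10 ± 0.22 (adjusted p = 0.000230). NFKB2 rose by 1.06 ± 0.28 (adjusted p = 0.0217), a call lost when the response was built from the same 3 tables (adjusted p = 0.0577). The members without a call were BIRC3, the ubiquitin ligase cIAP2, at 0.79 (95% interval 0.20 to 1.38), TNFAIP2 at 0.67 (0.22 to 1.11), NFKB1 at 0.48 (-0.012 to 0.97) and NFKBIA at -0.039 (-0.49 to 0.41). Both tables hold the untreated shCTRL libraries, which the choice did use. They need not cancel: the implied untreated shCTRL level of TNFRSF9 was 83.0 normalized counts in the first of the authors' deposited tables and 66.1 in the second. The SE counts these libraries in both tables, which enlarges it. It does not cover a mismatch between tables, such as 3.23 against 2.24 for TNFRSF9, so whether it is too large for such a gene is not known.

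**Figure D1:**
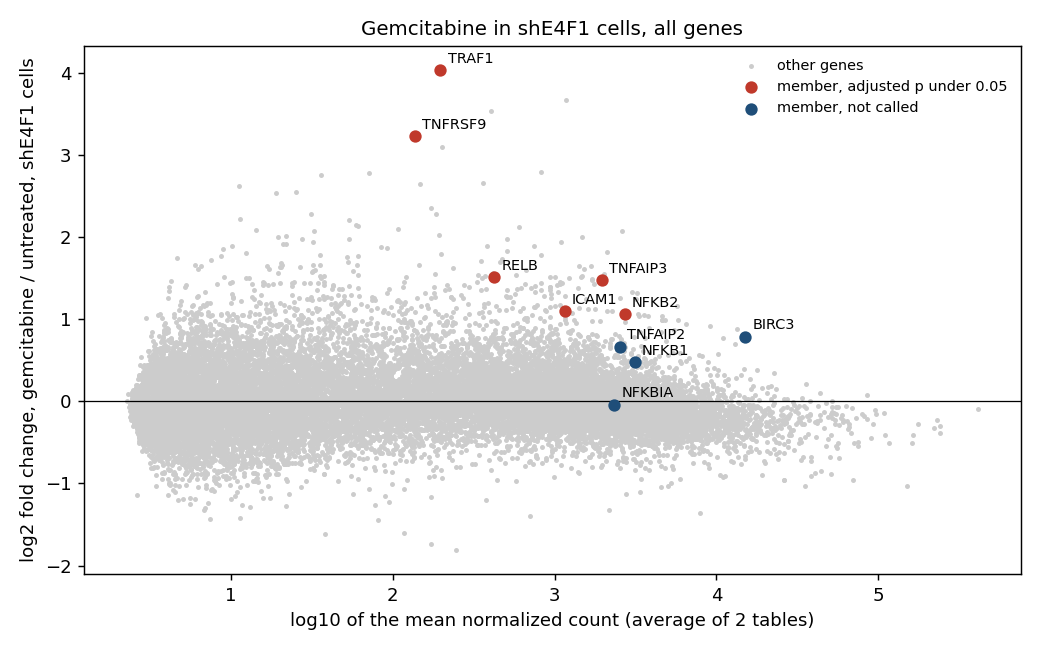
Log2 fold change with gemcitabine in shE4F1 cells against the log10 of the mean normalized count, 1 point a gene. TRAF1 at 4.04 and TNFRSF9 at 3.23 are at places 1 and 4 of all genes, RELB, TNFAIP3, ICAM1 and NFKB2 lie between 1.06 and 1.52, and NFKBIA lies at -0.039.

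Group levels behind these ratios can be approximated from the authors' deposited tables. The mean normalized count and the ratio of a table fix the mean of each of its groups only where the ratio is not moderated. A group that enters several tables is given by its lowest and highest value; the tables were scaled separately and low genes may be moderated, so these are approximate and carry no SE. TRAF1 had 719.6 to 799 normalized counts in shE4F1 cells with gemcitabine, 2033 to 2062 in shCTRL cells with gemcitabine, 35.5 in untreated shE4F1 cells and 15.7 to 26.1 in untreated shCTRL cells, from the authors' deposited tables. It was thus low in untreated cells with either hairpin and highest in drug-treated shCTRL cells. TNFAIP3 had 4932 to 5443 in shE4F1 cells with gemcitabine, 13327 to 13452 in shCTRL cells with gemcitabine, 1614 in untreated shE4F1 cells and 609 to 794 in untreated shCTRL cells, from the authors' deposited tables. Its order over the groups was that of TRAF1, from a higher untreated level. TNFRSF9 had 371 to 428 in shE4F1 cells with gemcitabine, 2073 to 2139 in shCTRL cells with gemcitabine, 31.4 in untreated shE4F1 cells and 66.1 to 185 in untreated shCTRL cells, from the authors' deposited tables. Here the untreated shE4F1 cells were lowest, and the untreated shCTRL value depended on the table by more than 2-fold.

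BIRC3 had 30246 to 32820 normalized counts in shE4F1 cells with gemcitabine, 25628 to 27269 in shCTRL cells with gemcitabine, 15886 in untreated shE4F1 cells and 6627 to 9122 in untreated shCTRL cells, from the authors' deposited tables. Both drug-treated groups of BIRC3 lay above both untreated groups, and the drug-treated groups were not called different. NFKBIA had 2875 to 3114 in shE4F1 cells with gemcitabine, 1773 to 1789.9 in shCTRL cells with gemcitabine, 2756 in untreated shE4F1 cells and 1790.2 to 2048 in untreated shCTRL cells, from the authors' deposited tables. Its levels were higher in both shE4F1 groups, and the drug gave no call with either hairpin. NFKB1, which encodes p105 and p50, had 3014 to 3262 in shE4F1 cells with gemcitabine, 6759 to 6799 in shCTRL cells with gemcitabine, 2018 in untreated shE4F1 cells and 3602 to 4223 in untreated shCTRL cells, from the authors' deposited tables. Both shE4F1 groups of NFKB1 lay under both shCTRL groups, although shE4F1 with gemcitabine and untreated shCTRL cells were not called different. ICAM1 had 1827 to 2003 in shE4F1 cells with gemcitabine, 4429 to 4454 in shCTRL cells with gemcitabine, 788 in untreated shE4F1 cells and 970.0 to 1161 in untreated shCTRL cells, from the authors' deposited tables. NFKB2, which encodes p100 and p52, had 4807 to 5256 in shE4F1 cells with gemcitabine, 7757 to 7787 in shCTRL cells with gemcitabine, 2101 in untreated shE4F1 cells and 1879 to 2278 in untreated shCTRL cells, from the authors' deposited tables. For NFKB2 and ICAM1 the drug-treated shCTRL cells were highest and the untreated groups were not called different. RELB had 804 to 886 in shE4F1 cells with gemcitabine, 1266 to 1278 in shCTRL cells with gemcitabine, 251 in untreated shE4F1 cells and 300.2 to 377 in untreated shCTRL cells, from the authors' deposited tables. TNFAIP2 had 3094 to 3374 in shE4F1 cells with gemcitabine, 6354 to 6389 in shCTRL cells with gemcitabine, 1812 in untreated shE4F1 cells and 2503 to 2949 in untreated shCTRL cells, from the authors' deposited tables. RELB followed the order of ICAM1, and for TNFAIP2 shE4F1 cells with gemcitabine and untreated shCTRL cells were not called different.

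**Figure D2:**
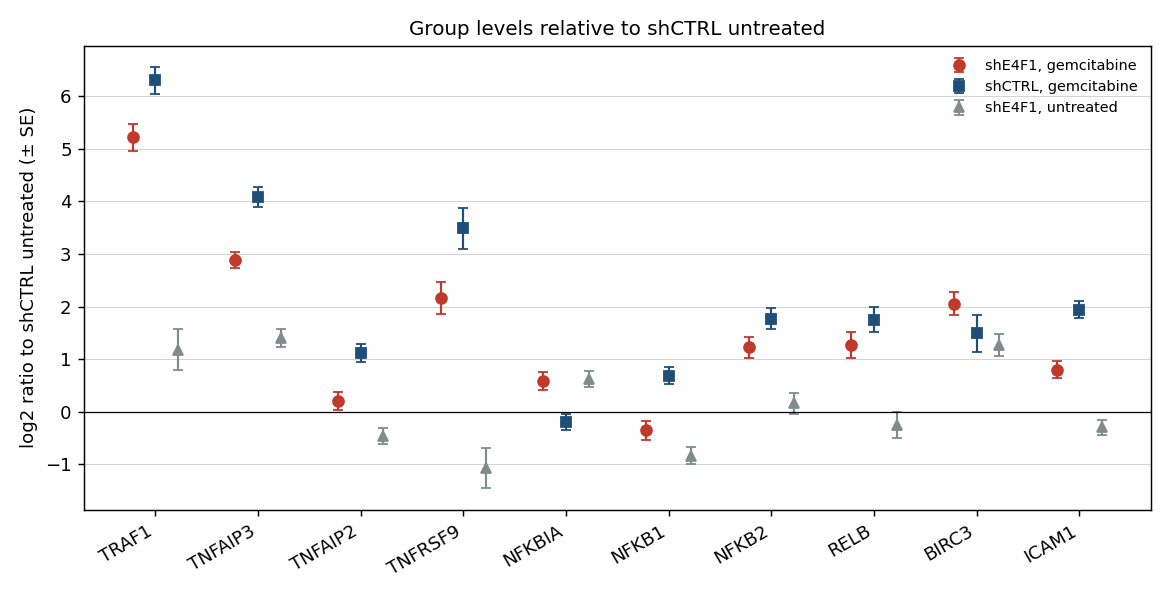
Log2 ratio of each group to untreated shCTRL cells for the 10 members; points are the authors' deposited values and bars their SE. TRAF1 stands at 5.22 in shE4F1 cells with gemcitabine, at 6.30 in shCTRL cells with gemcitabine and at 1.18 in untreated shE4F1 cells, while NFKBIA stands at 0.58, -0.19 and 0.62 in the same groups.

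Under gemcitabine, 8 of the 10 members fell in shE4F1 cells relative to shCTRL cells, 1 rose and 1 was not called. Over all 22433 genes of that comparison 20.8% fell and 20.3% rose. The members' median was -0.98 on the log2 scale, against 0.0014 for all genes. TNFRSF9 fell to 0.200 times the shCTRL level (log2 -2.32 ± 0.17, adjusted p = 1.02e-42) by the authors' deposited table. As the difference of 2 tables, each against untreated shCTRL cells, its log2 value was -1.32 ± 0.49 (adjusted p = 0.0416). The table subtracted there is the contrast used for the choice, so values built in this way are no separate check. TRAF1 fell to 0.393 times the shCTRL level (log2 -1.35 ± 0.17, adjusted p = 3.35e-14) and TNFAIP3 to 0.408 times (log2 -1.29 ± 0.16, adjusted p = 2.01e-15) by the authors' deposited table. ICAM1 fell by 1.14 ± 0.13 (adjusted p = 5.14e-18) and TNFAIP2, a TNF-inducible exocyst-related protein, by 0.91 ± 0.13 (adjusted p = 1.02e-10) by the authors' deposited table.

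Among the subunit genes, NFKB1 fell by 1.05 ± 0.11 (adjusted p = 6.89e-21), NFKB2 by 0.57 ± 0.088 (adjusted p = 1.21e-09) and RELB by 0.53 ± 0.14 (adjusted p = 0.000849) by the authors' deposited table. The calls of NFKB2 and RELB were lost when the contrast was built as that difference of 2 tables, with larger SEs (adjusted p = 0.198 and 0.402). NFKBIA, the inhibitor gene, rose by 0.81 ± 0.098 (adjusted p = 1.44e-15), 1.76 times the shCTRL level, by the authors' deposited table. BIRC3 was at 0.27 (95% interval -0.31 to 0.85, adjusted p = 0.527) by the authors' deposited table, and its SE of 0.30 was the largest of the members there. This comparison shares the drug-treated shCTRL libraries with the contrast on which the members were selected, and how far the selection moved these values was not tested.

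**Figure D3:**
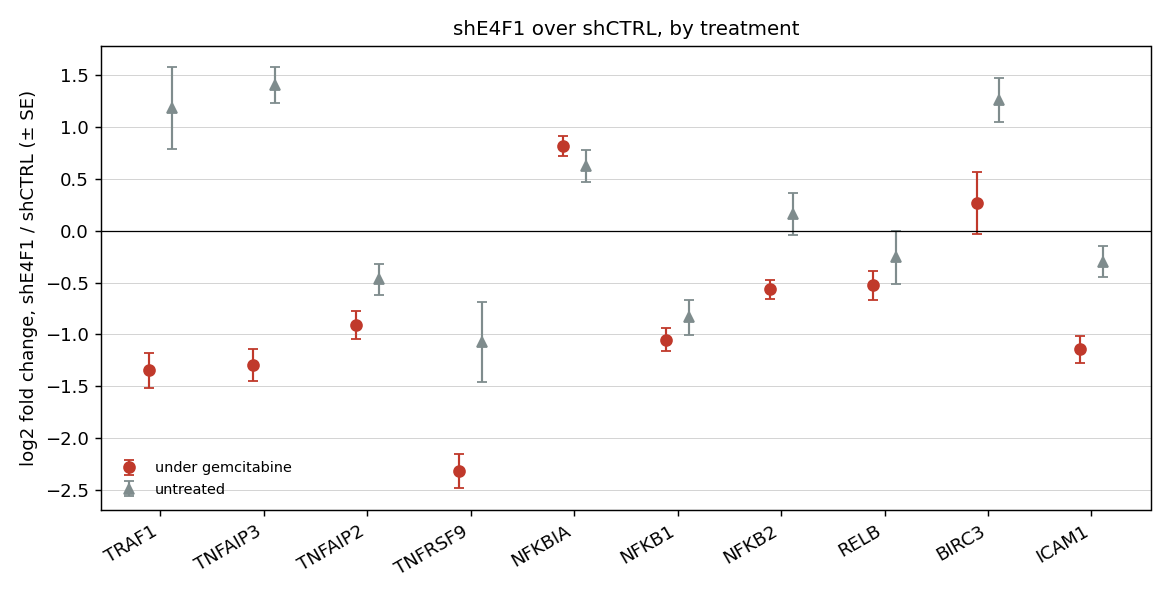
Log2 fold change of shE4F1 over shCTRL under gemcitabine and in untreated cells for each member, with SE bars, from the authors' deposited tables. TRAF1 and TNFAIP3 are at -1.35 and -1.29 under gemcitabine and at 1.18 and 1.41 in untreated cells, while NFKBIA is above 0 and TNFRSF9 and NFKB1 are below 0 in both.

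Without the drug the members were split: 4 rose in shE4F1 cells relative to shCTRL cells, 3 fell and 3 were not called. Over all 19472 genes with an adjusted p 17.5% rose and 19.3% fell. The members' median was -0.048, against 0.00013 for all genes. TNFAIP3 rose by 1.41 ± 0.17 (adjusted p = 8.67e-15), BIRC3 by 1.26 ± 0.21 (adjusted p = 2.41e-08) and NFKBIA by 0.62 ± 0.16 (adjusted p = 0.000417) by the authors' deposited table. TRAF1 rose by 1.18 ± 0.40 (adjusted p = 0.0103) by the authors' deposited table, at a mean of only 25.6 normalized counts. NFKB1 fell by 0.84 ± 0.17 (adjusted p = 8.24e-06), TNFAIP2 by 0.47 ± 0.15 (adjusted p = 0.00678) and TNFRSF9 by 1.07 ± 0.39 (adjusted p = 0.0192) by the authors' deposited table. ICAM1 was at -0.30 (95% interval -0.59 to -0.0092), RELB at -0.26 (-0.76 to 0.24) and NFKB2 at 0.16 (-0.23 to 0.55) by the authors' deposited table. This table shares the untreated shCTRL libraries with the contrast used for the choice.

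Set against untreated shCTRL cells, shE4F1 cells with gemcitabine had 8 members higher and none lower; 15.8% of the 19724 genes tested were called higher and 16.3% lower. The median over the members was 1.24, against -0.0012 over all genes. TRAF1 rose by 5.22 ± 0.26 (adjusted p = 3.67e-85) by the authors' deposited table. TNFAIP3 rose by 2.88 ± 0.16 (adjusted p = 4.48e-68), TNFRSF9 by 2.16 ± 0.30 (adjusted p = 1.68e-11) and BIRC3 by 2.05 ± 0.22 (adjusted p = 4.89e-19) by the authors' deposited table. RELB and NFKB2 rose by 1.26 ± 0.25 and 1.23 ± 0.20, ICAM1 by 0.80 ± 0.17 and NFKBIA by 0.58 ± 0.16 by the authors' deposited table, with adjusted p between 2.57e-08 and 0.00216. TNFAIP2 was at 0.20 ± 0.17 (adjusted p = 0.403) and NFKB1 at -0.36 ± 0.18 (adjusted p = 0.122) by the authors' deposited table. The untreated shCTRL libraries are also the baseline of the contrast used for the choice, so these values are no repeat of it in separate libraries.

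In shCTRL cells, the contrast used for the choice, 9 members were called higher with gemcitabine and none lower, where 14.5% of 20002 genes were called higher and 13.5% lower; nothing is read from this count. The members' median was 1.76, against -0.0078 for all genes. TRAF1 was at 6.30 ± 0.25, TNFAIP3 at 4.08 ± 0.19 and TNFRSF9 at 3.49 ± 0.39 by the authors' deposited table. ICAM1, NFKB2, RELB and BIRC3 were at 1.94 ± 0.16, 1.77 ± 0.20, 1.75 ± 0.24 and 1.49 ± 0.36 by the authors' deposited table. TNFAIP2 was at 1.12 ± 0.16, NFKB1 at 0.69 ± 0.17 and NFKBIA at -0.19 ± 0.16 by the authors' deposited table.

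Because it holds this contrast, the difference between the drug responses (shE4F1 minus shCTRL, from the knockdown tables) is given with no test. It was below 0 for 9 members and above 0 for NFKBIA, at 0.19 ± 0.19, with a median of -0.79 against 0.040 over 20926 genes. The widest gaps were TNFAIP3 at -2.70 ± 0.23 and TRAF1 at -2.53 ± 0.43. TNFRSF9 followed at -1.25 ± 0.42, BIRC3 at -0.99 ± 0.36, ICAM1 at -0.84 ± 0.20, NFKB2 at -0.73 ± 0.22 and TNFAIP2 at -0.45 ± 0.20. RELB at -0.27 ± 0.29 and NFKB1 at -0.22 ± 0.20 lay within about 1 SE of 0. For TNFRSF9 the tables did not close: the knockdown table under gemcitabine and the shCTRL drug table added up to 1.00 less than the table of both changes, and from those other tables its gap was -0.25. For the other members this closure error was between 0.0022 and 0.29 in size.

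**Figure D4:**
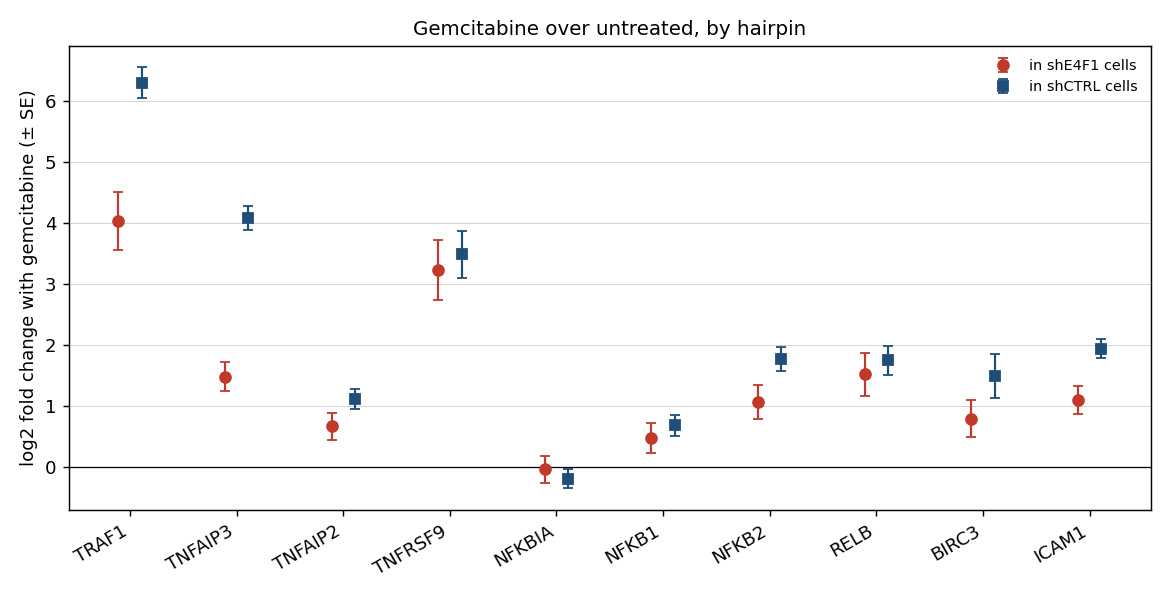
Log2 fold change with gemcitabine in shE4F1 cells (difference of 2 tables) and in shCTRL cells (authors' deposited table) for each member, with SE bars. TNFAIP3 is at 1.48 in shE4F1 cells and 4.08 in shCTRL cells, TRAF1 at 4.04 and 6.30, and RELB at 1.52 and 1.75.

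Around the members, 6 lists of other pathway genes held 91 symbols. These lists were chosen with earlier results of these data known, so their counts are a description and no test. In shE4F1 cells with gemcitabine against untreated, 13 of 79 rose and 1 fell, with a median of 0.26 against -0.022 for all genes, of which 0.925% rose and 0.185% fell. Of these, 11 of 28 other targets rose, led by the chemokine gene CXCL8 at 3.67 ± 0.35 and the cytokine gene IL6 at 3.09 ± 0.35. Of 15 other inhibitors 2 rose, NFKBIE at 1.17 ± 0.26 and NFKBIB at 1.15 ± 0.31, which encode further IkB proteins. None of 20 adaptors and kinases, 5 ligands and 2 other subunits passed, and the receptor gene TNFRSF1A fell by 0.78 ± 0.21 among 9 receptors.

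In the knockdown under gemcitabine 35 of 86 pathway genes fell and 17 rose (median -0.16, all genes 0.0014). Over all genes 20.8% fell and 20.3% rose, so the count of pathway genes that rose is near that share. Other targets fell in 18 of 31 cases and rose in 5, with IL1B at -3.65 ± 0.24 and CXCL8 at -3.31 ± 0.33 by the authors' deposited table. Adaptors and kinases fell in 8 of 20 cases and rose in 4, with TAB2, a scaffold of the TAK1 kinase, at -1.10 ± 0.10 and BIRC2, the paralog of BIRC3, at -0.88 ± 0.098 by the authors' deposited table. Other inhibitors fell in 5 of 15 cases and rose in 1, TNIP2 and TNIP3, partners of TNFAIP3, standing at -0.85 ± 0.12 and -0.70 ± 0.13 by the authors' deposited table. Of the other subunits REL fell by 0.36 ± 0.15 and RELA was at 0.011 ± 0.10 (adjusted p = 0.952) by the authors' deposited table. Receptors rose in 4 of 9 cases and fell in 1, with LTBR, the lymphotoxin receptor that feeds the noncanonical arm, at 1.15 ± 0.11 and TNFRSF14 at 1.00 ± 0.27 by the authors' deposited table. Ligands rose in 3 of 9 cases and fell in 2, with TNFSF14, a ligand of both these receptors, at 2.27 ± 0.25 by the authors' deposited table.

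In untreated cells 29 of 77 pathway genes fell and 18 rose with shE4F1 (median -0.087, all genes 0.00013). Over all genes 19.3% fell and 17.5% rose, and the counts of receptors in either direction and of other inhibitors that rose are near those shares. MAP3K14, the kinase NIK of the noncanonical arm, rose by 1.31 ± 0.15 and TAB2 fell by 1.01 ± 0.17 by the authors' deposited table, among 2 adaptors and kinases higher and 8 lower of 20. REL rose by 0.79 ± 0.20 and TNFSF14 by 3.18 ± 0.30 by the authors' deposited table. NFKBIZ, a nuclear IkB protein, rose by 0.92 ± 0.16 and ZC3H12A, an RNase that degrades cytokine mRNA, by 0.78 ± 0.19 by the authors' deposited table, among 3 other inhibitors higher and 5 lower of 15. Other targets fell in 14 of 26 cases and rose in 7, with CCL20 at -2.94 ± 0.23 and IL1A at -1.94 ± 0.30 by the authors' deposited table. TNFRSF1B, the inducible TNF receptor, rose by 1.08 ± 0.22 and TNFRSF12A fell by 0.94 ± 0.22 by the authors' deposited table, among 2 receptors higher and 2 lower of 9.

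With both changes against untreated shCTRL cells 33 of 81 pathway genes rose and 13 fell (median 0.33, all genes -0.0012). Over all genes 15.8% rose and 16.3% fell, so the count of pathway genes that fell is near that share. VCAM1, an adhesion molecule like ICAM1, rose by 3.54 ± 0.35 and CXCL8 by 2.73 ± 0.24 by the authors' deposited table, among 17 other targets higher and 4 lower of 30. TNIP3 rose by 1.63 ± 0.24 and NFKBIZ by 1.37 ± 0.17 by the authors' deposited table, among 6 other inhibitors higher and 1 lower of 15. MAP3K14 rose by 1.44 ± 0.16 and TAB2 fell by 1.12 ± 0.18 by the authors' deposited table. REL rose by 1.27 ± 0.21, TNFSF14 by 2.97 ± 0.31 and TNFRSF1B by 1.49 ± 0.22, while TNFRSF1A fell by 1.71 ± 0.15, by the authors' deposited table. With gemcitabine in shCTRL cells 42 of 83 pathway genes were higher and 7 lower (median 0.58, all genes -0.0078), where 14.5% of all genes were higher and 13.5% lower. These included 26 higher and 2 lower of 30 other targets, with CXCL8 at 4.94 ± 0.38 and CXCL1 at 4.30 ± 0.38 by the authors' deposited table. They also included 8 higher and 1 lower of 15 other inhibitors, with TNIP3 at 2.27 ± 0.24 and NFKBIE at 1.62 ± 0.19 by the authors' deposited table. REL was at 1.61 ± 0.21, RELA at 0.35 ± 0.13, TRAF2 at 0.93 ± 0.15, MAP3K14 at 0.88 ± 0.15, TNFRSF1B at 1.17 ± 0.20 and TNFRSF1A at -1.21 ± 0.14 by the authors' deposited table. The drug tables and the knockdown tables share groups, so their counts are not independent of each other.

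**Figure D5:**
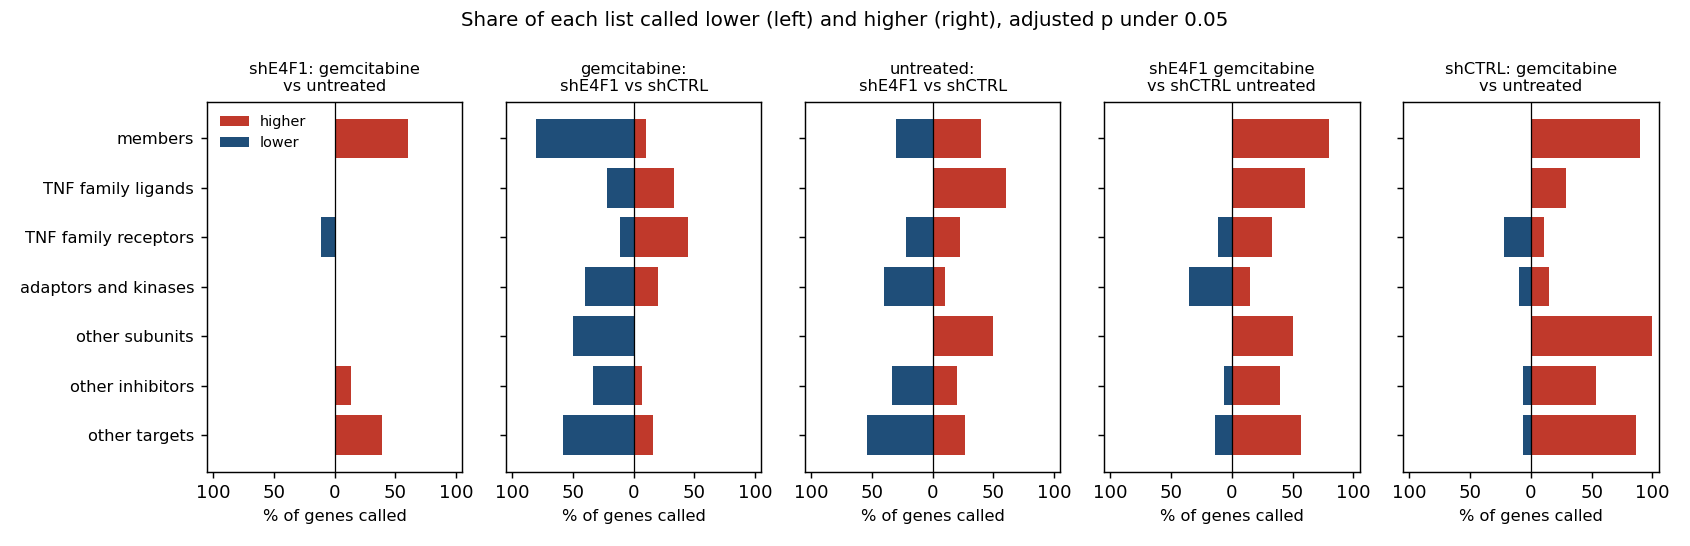
Share of the genes of each list called lower (bars to the left) and higher (bars to the right) at an adjusted p under 0.05, in percent of the genes with an adjusted p, for the 5 comparisons. Among the members 6 of 10 are higher in the first panel and 8 of 10 lower in the second, and the other targets stand at 11 of 28 higher in the first and 18 of 31 lower in the second. Over all genes, which are not drawn, 0.925% are higher in the first panel and 20.8% lower in the second.

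The genes whose pattern lay nearest to a member were found by the Euclidean distance over the 3 other groups, each as a log2 ratio to untreated shCTRL cells, among genes with a mean of at least 50 normalized counts in each of the 3 tables used. TRAF1 itself was under that mean in untreated cells. For TRAF1, compared with 12507 genes, the nearest was TNFAIP3, itself a member, at 3.23, followed by CXCL8 at 3.54, C1QTNF1-AS1 at 4.19, CFAP58 at 4.54 and ADM at 4.69. These distances are long, since no other gene was as high in both drug-treated groups. For TNFAIP3, compared with 12506 genes, the nearest were C1QTNF1-AS1 at 1.30, ADM at 1.46, ANKRD1 at 1.74, COL3A1 at 1.99 and GDF6 at 2.04.

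In the GENCODE 29 annotation of GRCh38, all 10 members are protein-coding genes. TRAF1 (ENSG00000056558) lies at chr9:120902393-120929173 on the minus strand, TNFAIP3 (ENSG00000118503) at chr6:137867188-137883312 on the plus strand, TNFRSF9 (ENSG00000049249) at chr1:7915894-7943165 on the minus strand and NFKBIA (ENSG00000100906) at chr14:35401511-35404749 on the minus strand. On the plus strand lie NFKB1 at chr4:102501329-102617302, NFKB2 at chr10:102394110-102402529, RELB at chr19:45001430-45038198, BIRC3 at chr11:102317450-102339403, ICAM1 at chr19:10270835-10286615 and TNFAIP2 at chr14:103123442-103137439. TNFAIP3 overlaps an antisense gene, ENSG00000237499, and ICAM1 overlaps ENSG00000267607, which had means of 2.82 to 5.54 normalized counts and no call. In the authors' deposited tables ENSG00000237499 was at -1.99 ± 0.25 (adjusted p = 4.07e-14) for the knockdown under gemcitabine, and at 2.78 ± 0.29 for gemcitabine in shCTRL cells, at means of 104 and 95.2 normalized counts in the 2 tables. It was not called in the untreated knockdown (0.32 ± 0.40, adjusted p = 0.594 by the authors' deposited table) or with gemcitabine in shE4F1 cells (0.55 ± 0.55, adjusted p = 1.00), where TNFAIP3 rose by 1.41 and 1.48. In these 2 comparisons without a call the antisense gene had means of only 19.0 (by the authors' deposited table) and 22.8 normalized counts. For TNFAIP3 the means in the first 2 tables were 9385 and 7123. The kit keeps strand, but the strand setting of the counting is not given in the sources used here, so reads of a gene and its antisense partner cannot be told apart here.

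Among markers of other cells, PTPRC, the leukocyte antigen CD45, was at -3.00 ± 0.27 (adjusted p = 5.00e-27) for the knockdown under gemcitabine and at 1.14 ± 0.24 for gemcitabine in shCTRL cells, at means of 111 and 144 normalized counts, by the authors' deposited table. ITGAM was at -0.29 ± 0.29 and 3.28 ± 0.40 in the same comparisons, at low means of 46.9 and 27.1 normalized counts, by the authors' deposited table. PTPRC was also at -2.21 ± 0.40 (adjusted p = 4.96e-07) for the untreated knockdown by the authors' deposited table, while in shE4F1 cells it was at 0.46 ± 0.54 with gemcitabine (adjusted p = 1.00). Of the 4 blood cell markers present, 1 was lower and none higher for the knockdown under gemcitabine, where 20.8% of all genes fell. For gemcitabine in shCTRL cells 2 were higher, where 14.5% of all genes were. KDR, an endothelial receptor, was at 2.92 ± 0.14 (adjusted p = 2.46e-88) for the knockdown under gemcitabine by the authors' deposited table. It was at -1.20 ± 0.22 for gemcitabine in shCTRL cells by the authors' deposited table, the only endothelial marker called there. The other 4 of 5 were not called and the median of the list was 0.11, where 13.5% of all genes were lower. In the knockdown under gemcitabine 2 of 5 endothelial markers were higher and 3 were not called, where 20.3% of all genes rose. Of the 6 mesenchymal markers 4 were higher there with none lower. With CD3E, CD8A, MS4A1 and CD68 in no table, the part of such transcripts in the values of TNFRSF9 and ICAM1, which leukocytes also express, was not tested.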

How the data were processed

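Messenger RNA libraries (12, stranded kit) of SUM159 cells gave single reads of 50 bases, as the series' design text says. The tools in the submitters' processing notes are HTSeq 0.9.0 and DESeq2 1.14.1 under R 3.4.0, with TopHat2 2.1.1, Bowtie2 2.2.9, FastQC and bcl2fastq, on GRCh38.p7. Which annotation, strand setting, filter and model formula they ran with is not given in the sources used here. Each of the 4 tables deposited by the authors holds a normalized count averaged over the compared libraries (a signal, per the file headers), a log2 fold change and its SE, a Wald score, and a p-value with its adjusted p-value from DESeq2. Missing adjusted p-values stayed missing, and fold changes of low genes may be moderated. The 12 columns of the count table match no label, so they were not used: no value, spread or depth per library, and no edgeR fit, was computed, although planned for the case that they matched. Precision is given by the SE.

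The gemcitabine response of shE4F1 cells was computed as a difference of 2 tables with summed variances, a two-sided normal test and Benjamini-Hochberg adjustment over 21085 genes (Python 3.11.15, numpy 2.4.6, pandas 2.3.3, scipy 1.17.1, matplotlib 3.10.9). The calculation was tested on simulated data with independent errors in the 2 tables and no moderation. That test could therefore not show effects of the shared libraries or of moderated fold changes. Group means were computed from the mean normalized count and the ratio, with equal group sizes and as if the ratio were not moderated. A call is an adjusted p under 0.05, with no filter on low values. The 10 members, the pathway lists and the markers were chosen with earlier results of these data known. All members are named; of each pathway list, the 2 called genes with the largest change and a mean of at least 50 are named per comparison, apart from RELA under knockdown with gemcitabine, which, like the markers PTPRC, ITGAM, KDR and VIM, was chosen after its values were seen. Nearest patterns are the 5 at the smallest distance. Alternatives were a mean of at least 50, centring on the median, adjusted p under 0.01, a log2 change of at least 1, and other tables for the same contrast. No chromosome sequence was used; upstream windows are RefSeq's for GRCh38.p14 and gene positions GENCODE 29's.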

Additional observations from a re-analysis of the deposited data

How the results depend on the processing

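No called member value changed sign in any of the 5 comparisons under the alternatives run. The share of all genes called was not computed under these alternatives, so the counts below stand without it and show only which calls stayed. Under a log2 change of at least 1, members called were 5 (main 9) for the knockdown under gemcitabine and 4 (main 7) for the untreated knockdown, because calls of smaller size no longer count. Other pathway genes called, an alternative chosen after seeing the data, then numbered 25 (main 52) and 17 (main 47) in these comparisons, 24 (main 46) with both changes and 29 (main 49) for gemcitabine in shCTRL cells. With other tables for the same contrast, whose SEs are larger, they numbered 9 (main 14) for gemcitabine in shE4F1 cells and 26 (main 52) for the knockdown under gemcitabine. Members called were 5 (main 6) and 7 (main 9). In both cases the other tables include that of gemcitabine in shCTRL cells, the contrast used for the choice. At an adjusted p under 0.01 the calls of NFKB2 for gemcitabine in shE4F1 cells and of TRAF1 and TNFRSF9 for the untreated knockdown were lost. In the last of these comparisons TRAF1 and TNFRSF9 had means of 25.6 and 48.8 normalized counts and were left out by a mean of at least 50. No paired analysis was possible because the columns of the count table match no label, and for the same reason DESeq2 and edgeR refits, a filter on low counts and leaving out a replicate were not run.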
